A study of Rattus norvegicus with 6 samples.

Results

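The libraries described here are the control libraries of a study of atrial fibrosis, namely cultured rat atrial fibroblasts transfected with si-NC, a non-targeting siRNA. They were chosen by their genotype label and number 3 of the 6 samples in the series. The remaining libraries, from the same cells transfected with siRNA against Gpd1l, enter no value given here. The cells came from Sprague-Dawley rats aged 1 to 3 days. Minced hearts were digested in 0.25% trypsin, and the cells that attached within 1.5 h of preplating were kept as fibroblasts, a step that removes myocytes by their slower adhesion. The cells were grown in medium with 10% fetal bovine serum and sequenced 24 h after transfection. The tissue label reads heart (atrial muscle), and a treatment label of atrial differentiation, which is not explained, is carried by the libraries. The labels do not say whether the libraries came from separate cultures or animals, so a standard deviation (SD) below measures the spread between these 3 libraries, which may be technical.

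Fibroblasts are the main cells that make the extracellular matrix of the heart. When activated they become myofibroblasts, which add smooth muscle actin and other contractile proteins to their cytoskeleton and secrete fibrillar collagen, and in the atrium this deposition is a known substrate of atrial fibrillation. Fibroblasts plated on stiff plastic in serum are known to take on part of this programme without a further stimulus. All values are descriptions of 1 group, and no test between groups was made.

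Levels are given in TPM, a unit of transcript abundance in which the reads of a gene are divided by the gene's length and scaled to the same sum in every library. Total counts were 18428551, 17467880 and 18900501 in replicates 1, 2 and 3. Of the 40154 genes in the table, 12941 (32.2%) had a TPM of at least 1 in each library, and these are called detected. Among protein-coding genes 11989 of 22764 (52.7%) were detected, which is the background for the gene lists below. Replicate 1 stood apart from the other replicates: its log2 TPM correlated with theirs at 0.989 and 0.985, against 0.995 between replicates 2 and 3 (Pearson's r across 8507 well-measured genes, which are not independent replicates), and the main values that move with it are also given without it.

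Expression was concentrated in few genes. The 143 genes with a mean TPM of 1000 or more held 40.2% of the summed TPM, a further 1398 genes from 100 to 1000 TPM held 33.3%, and 7024 genes from 10 to 100 TPM held 24.2%. The 100 most abundant genes held 35.8%, 34.1% and 34.6% of the TPM in replicates 1, 2 and 3, which is 34.9% ± 0.866 (SD, n = 3). Of these 100 genes, 49 encode proteins of the cytosolic ribosome, 10 lie on the mitochondrial genome and 4 are collagen chains.

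Col1a1, which encodes the alpha 1 chain of type I collagen (chr10:82745801-82762790 in the rn6 coordinates of the table), had the highest mean, at 16846 ± 3503 TPM (SD, n = 3). Its level was 12814, 18584 and 19141 TPM in replicates 1, 2 and 3, so replicate 1 lay below both others. COX1, a mitochondrially encoded subunit of cytochrome c oxidase, was instead highest in replicate 1, with 18940.1, 14565 and 14761 TPM. Col3a1, the chain of type III collagen (chr9:52023295-52059221), followed with 12536, 15585 and 16185 TPM. Without replicate 1 the means of Col1a1, Col3a1 and COX1 were 18862, 15885 and 14663 TPM.

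The next places went to Eef1a1, the elongation factor that delivers tRNA to the ribosome (11769 ± 497 TPM, SD, n = 3), and to the mitochondrial genes COX3 (11566 ± 2996 TPM) and COX2 (9648 ± 1662 TPM). Actb, the cytoskeletal beta actin (8083 ± 348 TPM), and Sparc, a collagen-binding matricellular protein (7637 ± 419.7 TPM), came before the mitochondrial genes ATP6 and CYTB. Bgn, the small proteoglycan biglycan, had 5317, 6039 and 6546 TPM. The top 20 were completed by Rn7sl1, Tpt1, Tmsb4x, Rplp0, Acta2, Vim, Rps2, Rpl21 and Tagln, between 5890.2 and 3929 TPM on average. In this order 17 of the 19 neighbouring pairs had overlapping ranges across the libraries, and the exceptions were the step from Col3a1 to Eef1a1 and the step from Rplp0 to Acta2. The place of Rn7sl1, the RNA of the signal recognition particle, rested on replicate 3, with 1834, 615 and 15222 TPM in the 3 replicates and a mean of 1224 TPM without replicate 3.

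**Figure D1:**
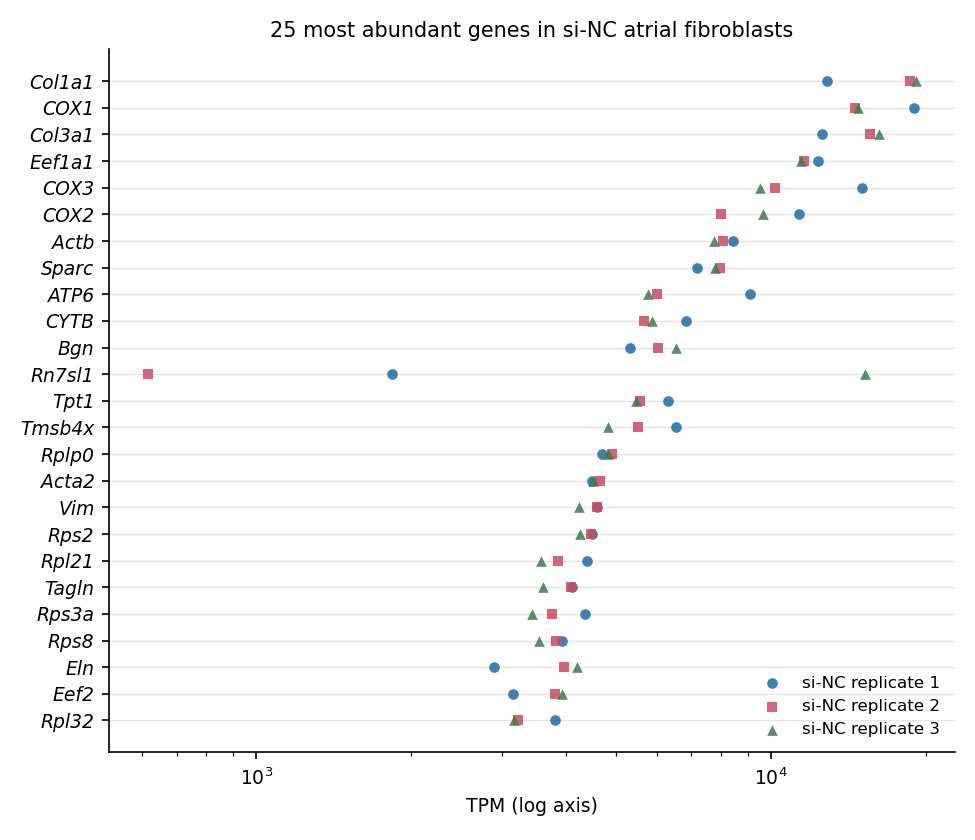
TPM (log axis) of the most abundant genes, 1 row per gene in the order of the mean, with a marker for each of the 3 si-NC libraries. Col1a1 and Col3a1 are lower in replicate 1 than in the others, COX1, COX3, COX2 and ATP6 are higher in replicate 1, and Rn7sl1 spans from 615 to 15222 TPM.

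By class, ribosomal protein genes held 16.4%, 15.2% and 14.2% of the TPM in replicates 1, 2 and 3, and the 37 mitochondrially encoded genes 7.88%, 5.78% and 6.02%. The 44 collagen chains held 3.58%, 4.77% and 4.87%. Replicate 1 was thus highest for ribosomal protein and mitochondrial transcripts and lowest for collagen. Counts are not divided by length, and the same chains took 9.08%, 11.1% and 11.2% of the counts. Without replicate 1 the collagen share of TPM was 4.82%, against 4.41% ± 0.718 (SD, n = 3) over all 3, and in the deposited transcript table summed by gene it was 2.68%. The ribosomal protein and mitochondrial shares were 14.7% and 5.90% without replicate 1, against 15.3% and 6.56% over all 3.

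The promoters of the most abundant genes carried some sequence letters more often than those of other genes, and a few are printed to show these letters beside the levels. RefSeq windows of the GRCr8 build, from 250 bases before the annotated start to 50 bases from it, were found for 19465 genes of the table and for 64 of the 100 most abundant. The letters TATAA between 45 and 16 bases before the start, on the strand of the gene, were held by 11 of these 64 (17.2%), against 3.58% of all genes with a window and 1.8% of the detected protein-coding genes and 6.5% of protein-coding genes with a mean below 1 TPM. A C followed by 5 letters that are each C or T, from 10 bases before the start to 15 bases from it, was held by 35 of the 64 (54.7%) and by 41 of 68 ribosomal protein genes (60.3%), against 16.5% of all genes with a window. Such a pyrimidine run at the very start of a transcript is known as the terminal oligopyrimidine tract of mRNAs for ribosomal proteins and translation factors. Placed exactly on the annotated start, the run was held by 13 of the 64 (20.3%) and by 18 of 68 ribosomal protein genes (26.5%), against 1.55% of all genes with a window. All 13 were ribosomal protein genes, so that without them it was 0 of 27, and among translation factors it was 0 of 21. Each window below runs from 45 bases before the start to 25 bases from it, 5′ to 3′ on the gene's strand. TATAA and the pyrimidine run, where found, are in capitals. The run was searched only from 10 bases before the start to 15 bases from it. Its capitals can therefore begin or end inside a longer run of C and T, as for Tpt1, Rps2 and Ctgf. The first 4 belong to translation genes and the last 4 to Acta2, Ctgf, Postn and Nppa, which are described further on. Nppa is not among the 100 most abundant genes.
Eef1a1 (chr8:88225045-88225114, minus strand): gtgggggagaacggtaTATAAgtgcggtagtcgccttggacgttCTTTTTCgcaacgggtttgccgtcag
Rplp0 (chr12:46718366-46718435, minus strand): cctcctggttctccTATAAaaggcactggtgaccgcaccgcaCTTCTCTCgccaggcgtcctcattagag
Rps2 (chr10:14251803-14251872, plus strand): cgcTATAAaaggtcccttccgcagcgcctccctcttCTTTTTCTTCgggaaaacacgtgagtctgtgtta
Tpt1 (chr15:57566099-57566168, plus strand): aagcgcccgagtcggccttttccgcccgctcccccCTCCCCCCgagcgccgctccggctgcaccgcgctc
Acta2 (chr1:241172479-241172548, minus strand): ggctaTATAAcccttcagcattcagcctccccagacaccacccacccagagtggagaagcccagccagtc
Ctgf (chr1:22624590-22624659, minus strand): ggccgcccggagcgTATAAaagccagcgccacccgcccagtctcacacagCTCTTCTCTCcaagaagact
Postn (chr2:140678016-140678085, plus strand): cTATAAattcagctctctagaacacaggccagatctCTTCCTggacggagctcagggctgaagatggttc
Nppa (chr5:163712139-163712208, plus strand): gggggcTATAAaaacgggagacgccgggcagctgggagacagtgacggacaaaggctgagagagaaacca

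In these windows TATAA was present for Eef1a1, Rplp0, Rps2, Acta2, Ctgf, Postn and Nppa but not for Tpt1. The pyrimidine run was present for all 4 translation genes, and also for Ctgf and Postn. These windows were picked and do not stand for their lists. Among genes with a window, TATAA was held by 7 of 68 ribosomal protein genes, 5 of 21 translation factors and 6 of 37 matrix genes. It was held by 1 of 17 contractile genes and 2 of 18 cardiomyocyte markers, and the run by 9 of 21 translation factors. A match is a description of letters and not a site of binding. Among the next 400 genes by abundance the shares were 7.79% for TATAA and 22.1% for the pyrimidine run, and among the 500 after these they were 2.19% and 18%. Without the ribosomal protein genes, 6 of 27 of the most abundant genes with a window held TATAA (22.2%) and 9 of 27 held the run (33.3%).

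Fibroblast is the identity given by the labels, and its markers were read first. Their detection alone does not set fibroblasts apart, since 21 of 22 cardiomyocyte markers were detected too. Of the fibroblast markers 16 of 16 were detected, and 13 had a mean TPM of at least 100. Besides the fibrillar collagens these were led by Vim, the mesenchymal intermediate filament, with 4586, 4592 and 4239 TPM, and by Postn, the matricellular protein periostin, with 2471, 2431 and 2699.9 TPM. S100a4 (760.3 ± 118 TPM, SD, n = 3) and Pdgfrb (697 ± 133 TPM) followed. The genes that the study used as its readout of fibrosis were present in every library: besides Col1a1 and Col3a1, Acta2, encoding alpha smooth muscle actin (chr1:252537614-252550394), had 4494, 4657 and 4499 TPM, and Tgfb1, the profibrotic growth factor, had 143, 167 and 166 TPM. Gpd1l, the target of the siRNA in the other libraries of the series, had 25.1, 34.4 and 32.9 TPM in these controls, with 265, 314 and 321 counts.

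Contractile genes of the myofibroblast ranged from 8.32 TPM to the level of Acta2. Of the list 22 of 22 genes were detected, and their summed TPM was 17717, 18343 and 17723. Acta2 differed by 1.04-fold between its highest and lowest library. Tagln, an actin-bundling protein of smooth muscle, had 4109.6, 4079.7 and 3598 TPM, and Tpm4, a tropomyosin, had 2489, 2401 and 2416 TPM. Flna, Tpm2 and Myl9, which encode filamin A, a tropomyosin and a regulatory myosin light chain, had means of 1138, 1025 and 987 TPM. Of 21 measured contractile genes 2 varied by at least 1.5-fold between libraries (9.52%, against 4.96% of all 8507 genes measured). These were Myh10 (337, 483 and 547 TPM) and Myh9 (17.3, 22.7 and 28 TPM), non-muscle myosin heavy chains. Both were lowest in replicate 1, and without it, which can only lower the ratios, 0 of the 21 varied so. Myh11, the heavy chain of mature smooth muscle myosin, was far lower at 20.4, 25.4 and 27.9 TPM, and Acta2 exceeded it by 161-fold to 221-fold within a library.

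Collagen chains of several types were expressed. Of the list 32 of 44 chains were detected (72.7%, against 52.7% of all protein-coding genes), and 16 had a mean of at least 100 TPM. The basement membrane chains Col4a1 and Col4a2 had 2694, 3562 and 3398 TPM and 1896, 2523 and 2415 TPM, and their ratio was between 1.41 and 1.42 in every library. Col6a1, of the beaded filaments, and Col5a2, of the fibrils that nucleate type I collagen, had means of 1373 and 1202 TPM. Each of these 16 chains was lowest in replicate 1.

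Col1a2, the partner of Col1a1 in the type I collagen trimer, was singled out after its values were seen. In the trimer known for type I collagen Col1a1 supplies a pair of chains and Col1a2 a single chain. Col1a2 had 203, 208 and 217 TPM, from 7583, 6715 and 7491 counts, and Col1a1 exceeded it by 63.1-fold, 89.5-fold and 88.2-fold. The table places Col1a2 within the span of Slc25a13 on the opposite strand (chr4:31134165-31757006), and Slc25a13 itself had 245, 248 and 249 counts. Whether reads of Col1a2 were lost in counting was not tested.

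**Figure D2:**
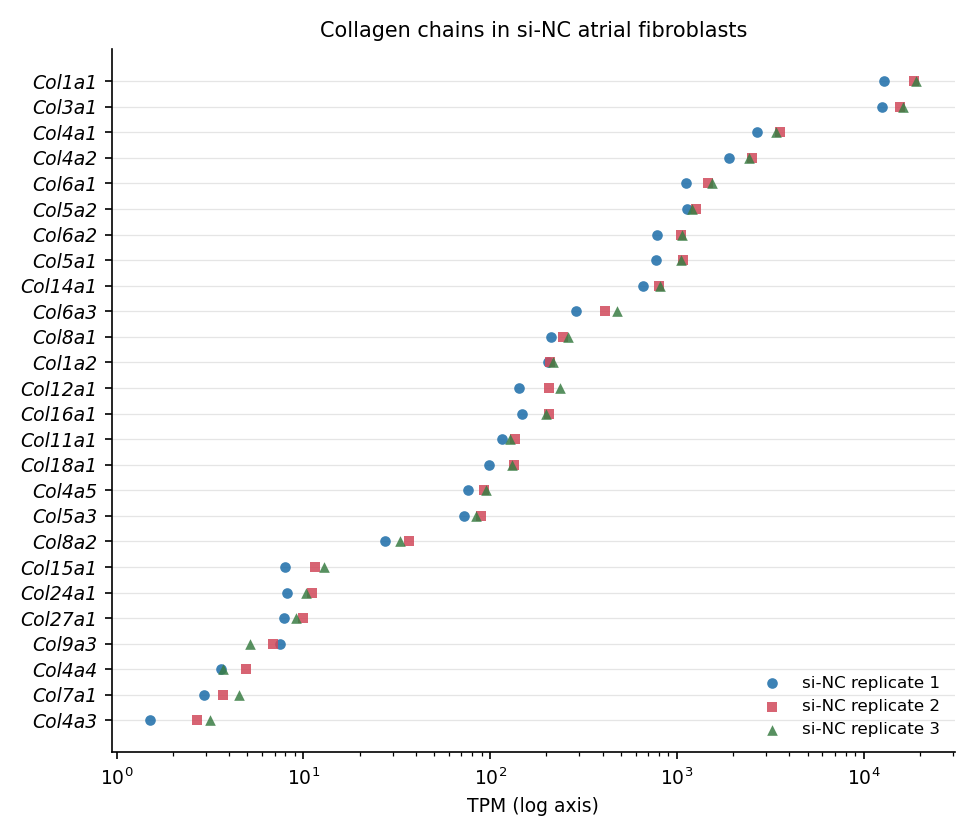
TPM (log axis) of the collagen chains with the highest mean, 1 row per chain, with a marker for each si-NC library. Col1a1 and Col3a1 lie apart at the top, Col1a2 sits near 209 TPM, and replicate 1 is the lowest marker in most rows.

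Of the matrix glycoproteins and matricellular proteins, 45 of 50 were detected, and Sparc, Eln, Ctgf (also known as Ccn2), Igfbp7, Postn and Fn1 were the highest. Eln, which encodes tropoelastin, had 2896, 3957 and 4194 TPM. Ctgf, a matricellular target of TGF-beta signalling, had 2627, 2670.1 and 2485 TPM, and Fn1, fibronectin, had 1878, 2744 and 2871 TPM. For Eln and Fn1 replicate 1 was the lowest, with means of 4076 and 2807 TPM without it, whereas the highest library was 1.07-fold the lowest for Ctgf. Vtn, the liver-derived vitronectin, was listed at 0 in every library.

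Among proteoglycans 21 of 24 were detected. Bgn stood above the rest, and exceeded its close relative Dcn (decorin, 315, 275 and 298 TPM) by 16.9-fold, 22.0-fold and 22.0-fold. Hspg2, the basement membrane proteoglycan perlecan, had 276, 445 and 494 TPM and was the lowest in replicate 1. Sdc2, Gpc4 and Lum had means of 343, 319 and 300.3 TPM.

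Genes that process and secrete collagen were detected throughout the lists. These were 32 of 32 genes for processing and crosslinking and 39 of 39 chaperones and secretory pathway genes. Serpinh1, the collagen-specific chaperone HSP47, had 2687, 3107 and 2965 TPM. Pcolce, which enhances removal of the procollagen C-propeptide, had 1475, 1584 and 1522 TPM, and P4hb, a subunit of prolyl 4-hydroxylase, had 889, 1006 and 988 TPM. Loxl1, a crosslinking oxidase, and Ppib, a prolyl isomerase of the endoplasmic reticulum, had means of 639 and 839 TPM. Calr, Hspa5 and Pdia3, general folding factors of that compartment, had means of 1195, 939 and 911 TPM.

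Matrix turnover genes were also present, with 33 of 37 detected. Mmp14, a membrane-bound metalloproteinase, had 1274, 1508 and 1525 TPM and Mmp2, the gelatinase that it activates, had 781, 949.8 and 1029 TPM. Their inhibitor Timp2 had 785, 1027 and 1064 TPM. The proteases Ctsl and Htra1 had means of 1151 and 634 TPM. Mmp10 and Mmp13 were at 0 counts in every library.

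Of the secreted growth factors and hormones, 55 of 71 were detected, and Nppa, the atrial natriuretic peptide, was the highest and is taken up with the cardiomyocyte genes. Ptn, the heparin-binding factor pleiotrophin, had 769, 661 and 702 TPM. Tgfb3 had 393, 436 and 407 TPM and exceeded Tgfb1 by 2.46-fold to 2.76-fold within each library, and Tgfb2 had 72.4, 68.5 and 63 TPM. Angptl2, Igf1 and Gas6 had means of 287, 246 and 231 TPM. Of the growth factor modulators 27 of 32 were detected, and Igfbp7 and Fstl1 led with 2563 and 1447 TPM, followed by the latent TGF-beta binding protein Ltbp2 (265 TPM).

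Of the cytokines and chemokines 19 of 39 were detected (48.7%, close to the 52.7% of protein-coding genes), and Ccl5, Csf2, Csf3, Cxcl9, Cxcl11, Tnf and Tnfsf11 were at 0 counts in every library. Ccl2, the monocyte chemoattractant, was the highest, and the most uneven of the first 6, with 282, 167 and 213 TPM. Mif had 174, 172 and 169.6 TPM, and Csf1, the growth factor of macrophages, had 64.9, 78.4 and 79.7 TPM. Cxcl16, Cxcl12 and Ccl7 had means of 64.1, 54.5 and 33.3 TPM.

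Receptors covered most classes of growth factor. Of the receptor tyrosine kinases, 36 of 44 were detected, and the PDGF receptor Pdgfrb was the highest with 548, 737 and 805 TPM, and exceeded Pdgfra (74.7, 92.9 and 104 TPM) by 7.34-fold to 7.93-fold. Axl, the receptor of Gas6, had 239.5, 296 and 279 TPM, and Ptk7, Ddr2, Fgfr1 and Ryk had means of 199, 131, 121 and 114 TPM. Ddr2 is a receptor for fibrillar collagen. Of the receptors of the TGF-beta, BMP, Wnt and Notch pathways, 22 of 26 were detected, and the co-receptor Eng had 349.5, 426 and 457 TPM and Tgfbr2 had 125, 159 and 169 TPM. Fzd1, Fzd2, Notch3 and Lrp5 had means of 179.9, 164, 132 and 60.2 TPM.

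Of the G protein-coupled receptors and their partners, 40 of 57 were detected, and the thrombin receptor F2r had 233, 252 and 271 TPM. Agtr1a, the type 1 angiotensin II receptor, had 59, 52.9 and 58.6 TPM, whereas its paralog Agtr1b was at 0 counts in every library. Adgra2, S1pr2, S1pr3 and P2ry2 had means of 219, 84.7, 49 and 48.3 TPM. Of the cytokine receptors, 29 of 35 were detected, and the TNF receptor Tnfrsf1a had 204, 233 and 229.8 TPM, and Tnfrsf12a, Ltbr, Tnfrsf11b, Ifngr1 and Il6st had means from 124 to 188 TPM. Of the integrins and adhesion receptors, 28 of 32 were detected, and Itgb1, the beta chain shared by the collagen and fibronectin receptors, had 2123, 2078 and 2014 TPM. The tetraspanins Cd63, Cd81 and Cd9 had means of 1468, 1363 and 174 TPM, and Dag1 and Itga1 had 269 and 166 TPM.

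Ligands and receptors were next set side by side for 59 known pairs. Both members were detected in 45 pairs, the ligand alone in 4, the receptor alone in 8 and neither in 2. The pairs were picked and no share over other pairs was computed, so these counts have no reference. The 6 pairs whose lower member was highest were Gas6 with Axl, Tgfb3 with Tgfbr2, Tgfb1 with Tgfbr2, Col1a1 with Ddr2, Jag1 with Notch3 and Tgfb2 with Tgfbr2. Jag1 had 68.1, 82.3 and 79.3 TPM and Notch3 105, 145 and 146 TPM. Pairs with 1 gene not detected included Tnf at 0 counts with Tnfrsf1a, Il1b at a mean of 0.0656 TPM with Il1r1 at 99.3 TPM, and Ptn at 711 TPM with Ptprz1 at 0.142 TPM. Ptprz1 was the only receptor set beside Ptn, so its level does not show that receptors of Ptn were lacking. These are RNA levels, and neither secretion nor binding was measured.

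**Figure D3:**
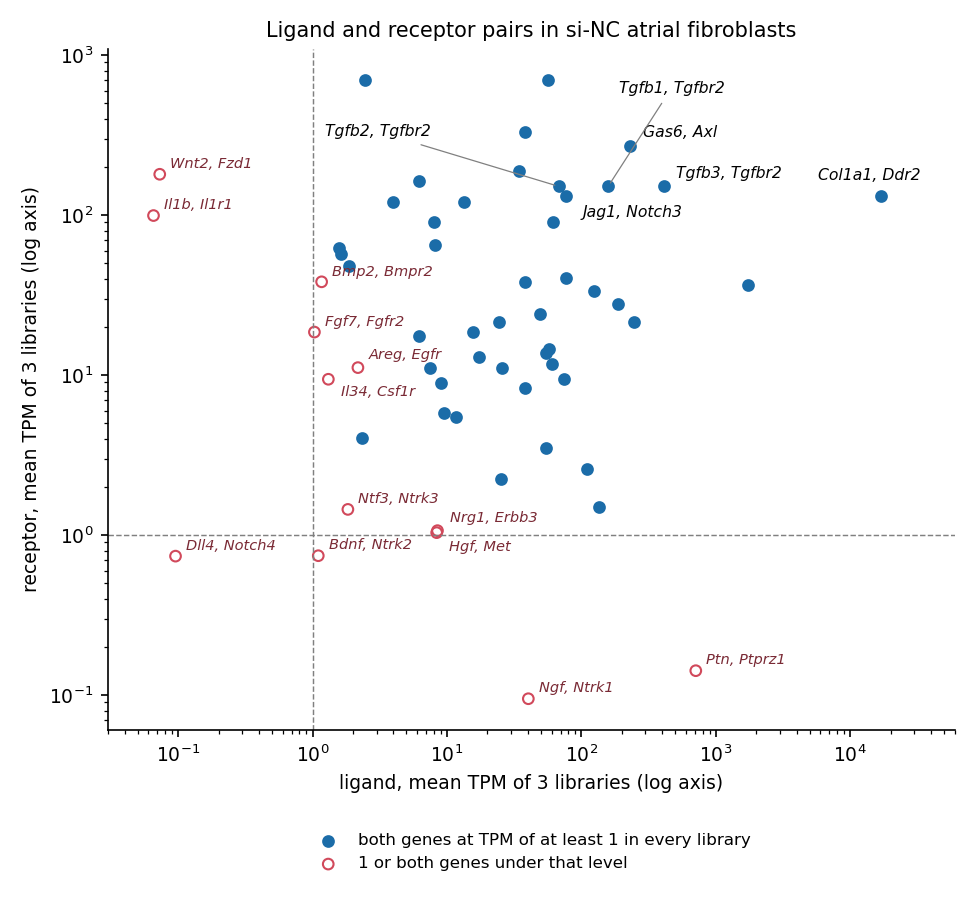
Mean TPM of the ligand (log axis) against mean TPM of the receptor (log axis) for the pairs with counts for both genes, 1 point per pair. Filled points have both genes at a TPM of at least 1 in every library (45 pairs), open points do not, dashed lines mark 1 TPM, and the pair of Tnf (0 counts) with Tnfrsf1a is not drawn.

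Transcription factors known from fibroblasts and the heart were mostly present, with 94 of 104 detected (90.4%). Id3, an inhibitor of basic helix-loop-helix factors, had 650.1, 698 and 702 TPM, and Atf4, a factor of the integrated stress response, had 659, 649.8 and 638 TPM. Tcf21, a factor of the epicardium-derived fibroblast lineage, had 372, 388 and 356 TPM and exceeded Wt1, a factor of the epicardium (6.75, 7.79 and 7.49 TPM), by 47.5-fold to 55.2-fold. Id2, Prrx1 and Jund had means of 229.5, 199.9 and 186 TPM. For the first 6 genes of the list the highest library was at most 1.14-fold the lowest.

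Markers of other cells that the preparation could hold were then read. A library is a sum over all its cells, so fewer cells of a type and less RNA per cell cannot be told apart. Cardiomyocyte markers were the highest of these lists, with 21 of 22 detected (95.5%, against 52.7% of protein-coding genes) and a summed TPM of 3929, 3827 and 3755. Nppa had 1239, 1269 and 1099.5 TPM, Tnnt2, the cardiac troponin T, had 1149.8, 1052 and 1074 TPM, and Actc1, the cardiac actin, had 393, 354 and 361 TPM. Tnnc1 and Myh6, which encode troponin C and the alpha myosin heavy chain, had means of 237 and 163 TPM. Atp2a2, a calcium pump of the sarcoplasmic and endoplasmic reticulum, had a mean of 216 TPM. These are the highest of the list, and its median member had a mean of 51.6 TPM. Tnni3, the cardiac troponin I, had a mean of 53.2 TPM, and Tnnt2 exceeded it by 19.3-fold to 21.4-fold within a library. Tcap, a protein of the sarcomeric Z-disc, was listed at 0 in every library.

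Genes listed as regional for the atrium and genes listed as regional for the ventricle were both present. Nppa, which marks the atrium but also the developing ventricle, was high, yet the atrial myosin light chains Myl7 and Myl4 had 38.7, 32.1 and 38.4 TPM and 50.9, 54.7 and 44.7 TPM. Their ventricular counterparts Myl2 and Myl3 had 102, 78.8 and 102 TPM and 149, 145 and 150.2 TPM. Myl2 exceeded Myl7 by 2.46-fold to 2.65-fold, and Myl3 exceeded Myl4 by 2.64-fold to 3.36-fold, in each of the 3 libraries. Sln, the atrial sarcolipin, had 40.1, 40.3 and 34.7 TPM, and the transcription factors Nr2f2 and Nr2f1 of the atrial list had means of 18.6 and 10 TPM. In all 6 of 11 atrial (54.5%) and 5 of 8 ventricular genes (62.5%) were detected, against 52.7% of protein-coding genes. With lists this short, these counts do not set either region apart from that share. Tbx5, on the atrial list (1.13 TPM), and Irx4, Kcne1 and Lrrc10, on the ventricular list (0.592, 0.176 and 0 TPM), were among those not detected. Hey2 and Nkx2-5, also on the ventricular list, had means of 11 and 8.01 TPM. A place on that list does not limit a gene to the ventricle, and Nkx2-5 is also made in atrial myocytes. The protocol in the labels speaks of minced hearts while the tissue label names atrial muscle, and these values do not tell in which cells the light chains were made.

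Pericyte and vascular smooth muscle markers followed with a summed TPM of 1072, 1324 and 1407, of which Pdgfrb, also a fibroblast marker, was the larger part. Mcam, Notch3, Des, Actg2 and Lmod1 had means of 183, 132, 108, 48.7 and 34.3 TPM. Endothelial markers summed to 406, 489.8 and 528 TPM, and Eng, which fibroblasts also express, held most of it. The endothelial genes Flt1, Npr3 and Tek had means of 14.5, 11.9 and 8.9 TPM, and Egfl7 and Tie1 had 6.01 and 4.5 TPM. Robo4 was at 0 counts in every library.

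Macrophage markers summed to 288, 302 and 326 TPM, with 15 of 18 detected. Lyz2, the lysozyme of myeloid cells, had 158, 165 and 180.2 TPM, and Cd14, Cd68, Fcer1g, Tyrobp and Ctss had means between 16.7 and 21.9 TPM. Epicardial and mesothelial markers summed to 132, 144 and 153 TPM and were led by Aldh1a2, a retinoic acid synthase, at 86.4, 97.7 and 101 TPM. Glial and neural markers summed to 92.5, 112 and 102 TPM, with 6 of 13 detected (46.2%, against 52.7% of protein-coding genes). Their median member had a mean of 1.07 TPM. Tubb3, a tubulin that is not limited to neurons, held most of the sum, with 79.3, 97.3 and 87.2 TPM, and Th was at 0.

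Blood cell markers were near the floor. Of 14 lymphocyte and mast cell markers 2 were detected, Kit at 5.79 TPM and Cd4 at 2.31 TPM, and Cd3d, Cd3e, Cd79b, Cpa3, Fcer1a, Mcpt1l1, Ms4a1 and Nkg7 were at 0 counts in every library. None of 8 erythroid markers was detected (0 of 8), and Hbb, Hba1 and Slc4a1 were among those listed at 0. A count of 0 allows up to 3 counts, or 0.159 to 0.172 CPM (counts scaled to the library total), for counting error only. A listed 0 was not always absence of the transcript, since Rpl35a, a ribosomal protein gene that every cell uses, was also at 0 counts, and Rpl8 had 1 count in all. Both were singled out after their values were seen.

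**Figure D4:**
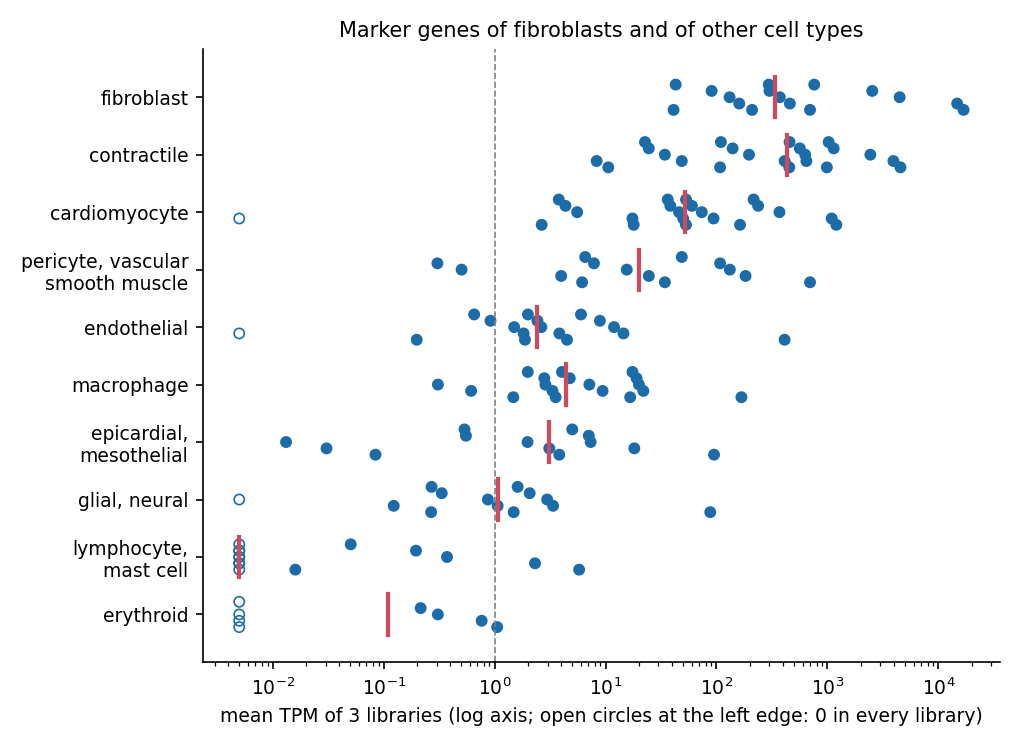
Mean TPM over the 3 libraries (log axis) of each member of 10 marker lists, 1 point per gene, with the list's median as a red bar and a dashed line at 1 TPM. Fibroblast and contractile genes lie mostly above 100 TPM, cardiomyocyte genes spread from 0 to 1203 TPM, and the lymphocyte and erythroid lists lie below 10 TPM with open circles for genes at 0 in every library.

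The spread between the libraries was measured on the 8507 genes with a mean TPM of at least 10 and at least 50 counts in every library. The median coefficient of variation (SD over mean) was 8.73%, and counting error alone would give 3.50%. The highest library was at least 1.5-fold the lowest in 422 genes (4.96%), and at least 2-fold in 19. Replicate 1 was the lowest library in 345 of the 422 genes and replicate 3 the highest in 307. Without replicate 1 the count fell to 19 genes, and without replicate 3 to 150. A ratio of highest to lowest cannot grow when a library is left out, so these counts could not rise. No pair of libraries was alike to within sampling noise (chi-square over its degrees of freedom, 6.52 to 20.6), so none was merged with another.

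The genes that varied most were of several kinds. Rn7sl1 varied by 24.8-fold. ND4, a mitochondrial subunit of respiratory complex I, had 185, 28.9 and 158 TPM, so replicate 2 was low, whereas ND4L, with which it shares a transcript, had 938, 746 and 767 TPM. Rn18s and Rn45s, the ribosomal RNA and its precursor, were highest in replicate 2, with 1293, 2545 and 565 TPM and 564, 1098 and 424 TPM, and their annotated spans overlap. Uchl3, a ubiquitin hydrolase, had 17.7, 6.96 and 11.5 TPM, and Rap2a, a small GTPase, had 14.1, 24.5 and 32.9 TPM. The other 4 of the 10 most variable genes carry no gene name. Outside the filter, and chosen after its values were seen, Rmrp, the RNA of the RNase MRP complex, had 1346, 25.2 and 10.1 TPM. The labels state that the libraries were made by poly(A) capture, and Rn7sl1, Rmrp and the ribosomal RNAs are known to lack a poly(A) tail. These RNAs differed in level between the libraries, and their part in the other differences was not tested.

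The direction of the spread followed the length of the gene. Among the 852 shortest genes (68 to 1074 bases), the median log2 TPM of replicate 1 was 0.11 above the mean of the other replicates, and among the 850 longest (6741 to 35827 bases) it was 0.33 below it (-0.33). Replicate 3 ran the other way, from -0.13 to 0.22, and replicate 2 from 0.01 to 0.10. Spearman's rho between this difference and length, across 8507 genes that share the same libraries, was -0.48, 0.17 and 0.52 for replicates 1, 2 and 3. The 303 variable genes that were lowest in replicate 1 and highest in replicate 3 had a median length of 7303 bases, and the 47 with the opposite order had 1028 bases, beside 2702 bases over all the genes measured.

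**Figure D5:**
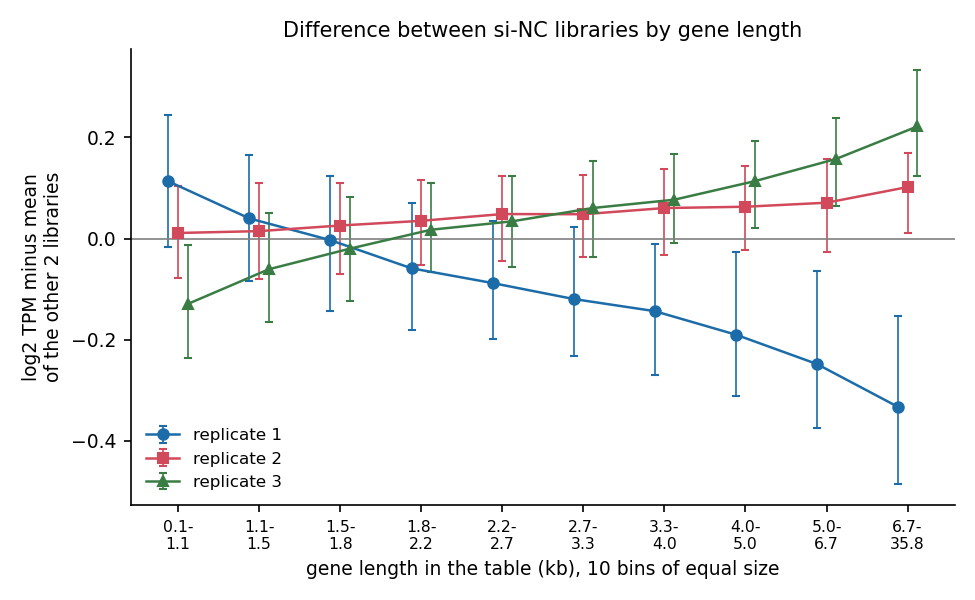
Median difference between a library's log2 TPM and the mean of the other libraries, by gene length in 10 bins of about 850 genes, with bars from the lower to the upper quartile. Replicate 1 falls from 0.11 to -0.33 with length and replicate 3 rises from -0.13 to 0.22.

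Many of the matrix genes are long. Among matrix glycoproteins 8 of 41 measured genes varied by at least 1.5-fold (19.5%, against 4.96% of all genes), namely Fn1, Fbn1, Fbn2, Lama2, Lama5, Ltbp4, Svep1 and Tgfbi, and all 8 were lowest in replicate 1. The same was true of Hspg2, Podn and Cspg4 (3 of 18 proteoglycans), and of Col6a3, Col12a1 and Col15a1 (3 of 20 collagen chains). Without replicate 1 none of these lists had such a gene, with 0 of 41, 0 of 18 and 0 of 20. As these genes were all lowest in replicate 1, leaving it out could only lower their ratios, so the zeros are no separate result. With each library's trend on length removed, an alternative added after the data were seen, 1 of the 41 matrix glycoproteins and 0 of the 20 collagen chains remained past 1.5-fold, and the count over all genes was 228, of which 147 were among the 422. The median length of the measured matrix glycoproteins was 4471 bases and that of the collagen chains 5948 bases. Without this correction 0 of 26 translation factors, 0 of 18 glycolytic genes, 0 of 39 secretory chaperones and 0 of 16 fibroblast markers varied by 1.5-fold. Lists this short hold few such genes at the 4.96% of all genes. Among the fibroblast markers Col1a1 (1.49-fold) and Pdgfrb (1.47-fold) lay just under the limit. With the correction 1 translation factor passed it, and the proliferation genes went from 1 to 3 of 34.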

How the data were processed

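Messenger RNA from si-NC-transfected fibroblasts of the rat atrium was sequenced by the authors on an Illumina platform after poly(A) capture (3 libraries). The submitters' processing notes name bcl2fastq, HISAT2 2.1.0, HTSeq 0.12.4 and the build rn6, without their settings. Whether the counting used strand is not given in the sources used here. The authors deposited whole-number counts per gene without normalization and TPM values for 40154 genes, together with the gene length in bases. The deposited TPM equalled the count divided by this length and scaled to the same sum in every library (largest difference 4.91e-11). All per-sample columns were matched to samples by name. The authors' comparison tables, which hold fold changes, p-values and enrichment terms, were not used. A transcript table with TPM, also deposited by the authors, served as an alternative.

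Means, SD, ratios and rank correlations were computed with Python 3.11.15 (pandas 2.3.3, scipy 1.17.1), TMM factors with edgeR 4.0.16 and size factors with DESeq2 1.42.0, and figures with matplotlib 3.10.9. No group comparison or test was fitted. Detection was a TPM of at least 1 in every library. Spread was read on genes with a mean TPM of at least 10 and 50 counts in every library, and the spread count and length trend were first tested on simulated data. Total counts ran from 17467880 to 18900501. List members were matched by symbol, or by NCBI gene ID through the RefSeq table of GRCr8 (922 of 926 symbols in 34 lists). Where a gene had several promoter windows, the first listed was used.

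Genes named were the 20 of highest mean TPM, Col1a1, Col3a1, Acta2, Tgfb1, Gpd1l, the first 6 of each list, members of other cell types' lists at 0, the 10 of largest spread (genes without a name only counted) and the first 6 ligand and receptor pairs. A few genes that this rule names are not reported here. Others were named after their values were seen, including the rest of the list members given at 0 or as relatives of a named gene. The members and lists were chosen with earlier results of these data known. Alternatives were other detection limits, shares of counts, mitochondrial genes left out, the transcript table, other normalizations and filters, and each library left out.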

Additional observations from a re-analysis of the deposited data

How the results depend on the processing

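The number of genes detected stayed between 10017 and 14079 under the other detection limits and with any library left out, against 12941. The share of the 100 most abundant genes was 29.5% as a share of counts, 32.2% without mitochondrially encoded genes and 24.8% in the transcript table, against 34.9%. The collagen share was 10.5% as a share of counts and 2.68% in the transcript table, against 4.41%, and counts are not divided by gene length. The number of genes with at least a 1.5-fold spread was 2251 with a mean TPM of at least 1 and no minimum count, 228 with the length trend removed (added after the data were seen), 19 at 2-fold, and between 19 and 377 with 1 library left out, against 422. The median coefficient of variation was between 4.26% and 9.43% with 1 library left out, the lowest without replicate 1, 10.9% without a minimum count, 7.11% with the length trend removed, and 8.21% to 8.22% under the other normalizations. In the transcript table summed by gene, 150 means of named genes moved by more than 1 SD and 51 did not, and 33 list sums moved and 4 did not. The median ratio to the gene table was 0.511 over 198 named genes, and 141 of them and 15 of 37 list sums moved by over 1.5-fold, so the TPM levels printed hold for the gene table only; the cause was not tested. Leaving out 1 library of 3 cannot move a mean by more than 1 SD, so it says nothing on those means. No paired analysis was possible because the libraries form 1 group and no result comes from a test. At 17467880 to 18900501 counts a library, genes under 3 counts cannot be told from absence.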

Other observations

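Beyond the matrix programme, the cultures carried transcripts of proliferation genes, and cell division itself was not measured in these libraries. Of the proliferation genes, 40 of 40 were detected, led by the D-type cyclins Ccnd3 (190.2, 225 and 220.5 TPM), Ccnd2 (150.1, 187 and 196 TPM) and Ccnd1 (mean 76.8 TPM). Pcna, the sliding clamp of DNA replication, had 139, 115 and 113 TPM, and Rrm1 and Cdk1 had means of 55.8 and 41.6 TPM. Lower on the list, Top2a and Mki67 had means of 27.1 and 17.1 TPM. Of the glycolytic genes, 23 of 27 were detected, and Gapdh, Eno1, Aldoa, Ldha, Pkm and Pgk1 had means from 458 to 1385 TPM, and the summed TPM of the list was 6045 ± 78.7 (SD, n = 3). Pklr, the pyruvate kinase of liver and red cells, was at 0 counts. Of the cytoskeleton genes, 49 of 49 were detected, and among the leaders of the list were Tmsb4x and Tmsb10, actin-monomer binding peptides, with 6519, 5516 and 4829.5 TPM and 3147, 3000.4 and 2748 TPM.

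Stress genes and part of the interferon genes were detected in the controls. Of the immediate early and stress genes, 21 of 24 were detected, and Hspb1, a small heat shock protein, had 442, 486 and 493 TPM, and Ier3, Junb, Egr1, Trib3 and Hmox1 had means from 103 to 187 TPM. Of the interferon-stimulated genes, 13 of 20 were detected (65%, against 52.7% of protein-coding genes), and the median member had a mean of 6.83 TPM. The highest was Ifitm3, a restriction factor of viral entry, with 1140.1, 1001 and 932 TPM. B2m, the light chain of MHC class I, had 578, 491 and 470.3 TPM and Ifitm2 had 401, 327 and 318 TPM. Ifit2 and Stat2 were lower, at means of 55.4 and 29.8 TPM. No untransfected library is among those read here, so these levels have no reference.

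Of the sex-linked genes, 3 of 6 were detected. Xist, which is made from the inactive X chromosome and was matched through its NCBI gene ID, had 96.6, 107 and 115 TPM. The Y-linked genes Eif2s3y and Kdm5d had 51.4, 34.3 and 34.3 TPM and 6.46, 6.85 and 6.4 TPM in the same libraries. The other genes listed as Y-linked, Ddx3y, Usp9y and Sry, were not detected, at means of 0.545, 0.0437 and 0 TPM, and the table places Ddx3y on chromosome 13.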
